A study of Mus musculus with 6 samples.

Results

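The 40 genes described here make up the folding and stress machinery of the endoplasmic reticulum (ER). They were chosen as a list of symbols, and all 40 were found among the 24346 gene entries of each library. The libraries hold RNA of epithelial cells from distal, middle and proximal colon. The mice were C57BL/6J, wild-type and without treatment, with 1 female and 1 male library for each of the 3 regions. Polyadenylated RNA was sequenced with strand-specific libraries, and the values are FPKM, fragments per kilobase of transcript scaled to the library's size. Age, the number of mice in a library, the way the cells were isolated, and whether 1 mouse gave more than 1 region are not given in the labels, so p-values measure only the spread between these libraries.

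Proteins that a cell secretes enter the ER through the Sec61 channel, lose their signal peptide, and fold there with the help of chaperones and disulfide isomerases. Molecules that fail to fold are sent back to the cytosol and degraded. When unfolded protein builds up, the sensors IRE1, PERK and ATF6 start the unfolded protein response, which raises the level of chaperones and degradation factors and slows translation. In the colon this machinery carries a heavy load in goblet cells, which make the large disulfide-linked mucin MUC2, and IRE1beta is a form of the sensor largely restricted to mucus-making epithelia.

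Of the 40 genes, 38 reached 1 FPKM in at least 2 libraries and were tested among 11815 such genes. The 2 others, the degradation factor Derl3 (at most 0.803 FPKM) and the stress-induced pseudokinase Trib3 (at most 0.136 FPKM), are given only as levels. The 6 libraries held an estimated 7.83 to 9.94 M fragments and 11170 to 11473 entries at 1 FPKM or more. The epithelial markers Epcam and Krt8 were high in all 6, at least 743 and 3318 FPKM. Markers of plasma and B cells, whose ER is also enlarged, summed to between 0.351 and 1.43 FPKM over 9 genes, with Mzb1 and Tnfrsf17 listed at 0 in all 6 libraries. Markers of T cells and intraepithelial lymphocytes (6 genes) summed to 2.70 and 2.45 FPKM in the female and male distal libraries, 6.32 and 3.79 FPKM in the middle ones, and 13.6 and 35.7 FPKM in the proximal ones. Libraries of 1 region also differed between the sexes: the colonocyte markers (5 genes) summed to 16394 FPKM in the female and 27883 FPKM in the male proximal library. Of the male sum, the marker Car1 alone held 19757 FPKM. No gene of the female proximal library exceeded 7996 FPKM (Lypd8), so this difference came mainly from Car1. The deep crypt secretory markers Reg4 and Kit summed to 440.1 and 470.4 FPKM in the female and male distal libraries, 447 and 71.8 FPKM in the middle ones, and 25.8 and 414 FPKM in the proximal ones. This sum hid opposite directions: against proximal colon, 1 of these 2 markers was fitted higher in distal colon and 1 lower. The lower one was called by limma at an adjusted p under 0.05, as were 7.64% of all kept genes. Other epithelial marker sums were also lower in distal than in proximal libraries. Stem and proliferation markers (3 genes) averaged 27.3 and 40.8 FPKM, and tuft markers (3 genes) 0.700 and 3.19 FPKM. Enteroendocrine markers (4 genes, 1 of them fitted higher in distal colon) averaged 140 and 206 FPKM. The general epithelial markers (4 genes) went the other way, with 5440 and 4996 FPKM. The part of these differences in the results below was not tested. In RNA from a whole epithelium, fewer cells of a type and less RNA per cell cannot be told apart.

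Promoters of some genes on the list carried a known stress element. The ER stress response element (ERSE) is bound by ATF6 and XBP1 together with NF-Y, and was described in promoters of ER chaperones, some of which are on this list, so its presence here is no independent finding. RefSeq promoter windows (GRCm38.p6, 250 bases before to 50 after each gene's start) were at hand for 33 of the 40 genes, and both strands were searched for CCAAT and CCACG with 9 bases between them. The element was found in 9 of the 33 genes (27.3%), against 37 of 27025 genes with a window (0.137%). The matches are printed in the direction of transcription because they show which members share the element and in which orientation, with capitals marking the element and 12 bases on each side in lower case.
Hspa5, chr2:34772013-34772055, plus strand: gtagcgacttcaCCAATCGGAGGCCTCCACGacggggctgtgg
Hsp90b1, chr10:86705626-86705668, minus strand: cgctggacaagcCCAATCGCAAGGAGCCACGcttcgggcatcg
Hsp90b1, chr10:86705521-86705563, minus strand: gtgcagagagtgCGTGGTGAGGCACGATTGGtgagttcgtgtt
Dnajc3, chr14:118937815-118937857, plus strand: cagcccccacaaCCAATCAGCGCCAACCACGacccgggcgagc
Creld2, chr15:88819508-88819550, plus strand: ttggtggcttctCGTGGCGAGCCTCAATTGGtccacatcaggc
Calr, chr8:84847063-84847105, minus strand: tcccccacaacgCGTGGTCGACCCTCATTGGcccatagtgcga
Canx, chr11:50325788-50325830, minus strand: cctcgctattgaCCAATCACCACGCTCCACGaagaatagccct
Pdia6, chr12:17266479-17266521, plus strand: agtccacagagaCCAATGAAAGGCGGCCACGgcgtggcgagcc
Syvn1, chr19:6046520-6046562, plus strand: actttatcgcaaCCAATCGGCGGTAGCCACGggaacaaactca
Derl3, chr10:75893230-75893272, plus strand: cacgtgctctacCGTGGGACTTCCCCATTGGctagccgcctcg

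In 5 of these genes the element reads forward, and in the 3 genes Calr, Creld2 and Derl3 it reads in reverse, as CGTGG and ATTGG. Hsp90b1 has 1 of each. All of the matches lie before the RefSeq start. A second form, ERSE-II (ATTGG and CCACG separated by 1 base), was found in Herpud1 and Dnajb11, 2 of the 33 genes (6.06%) against 0.0444% of all genes with a window. The Herpud1 match, shown because Herpud1 had the highest distal values among the degradation genes, ends 42 bases before the start.
Herpud1, chr8:94386365-94386399, plus strand: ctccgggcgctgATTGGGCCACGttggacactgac

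The Dnajb11 match lies just after the start. Neither the unfolded protein response element TGACGTGG nor the amino acid response element TGATGNAAT was found in these 33 genes' windows, where 0.714% and 1.08% of all genes with a window have a match. Both strands were searched for each, and ERSE, ERSE-II and the unfolded protein response element share the letters CCACG, read on 1 strand or the other.

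**Figure D1:**
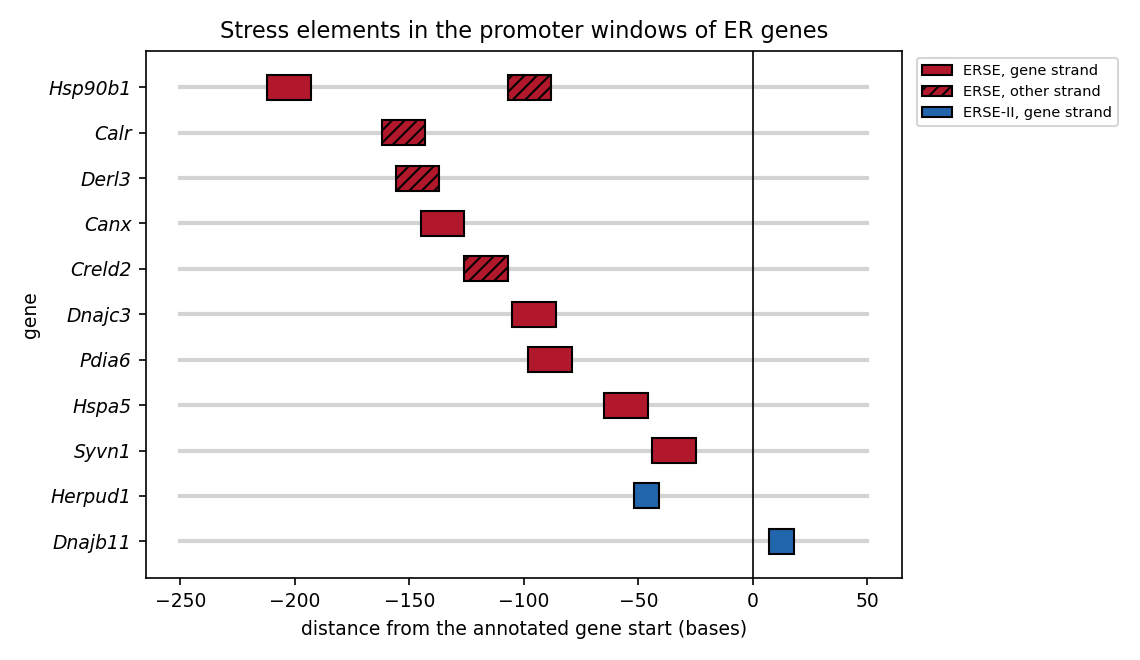
Position of the element matches along the promoter windows of the members that have one, as distance in bases from the RefSeq gene start on the horizontal axis. Each box is 1 match, red for ERSE and blue for ERSE-II, hatched where it lies on the strand opposite to the gene; the Dnajb11 match lies after the start and the others before it.

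By the median, levels of the 38 tested genes varied between libraries about as much as those of genes averaging at least 5 FPKM. Large ratios were absent among the 38. Calr, a lectin chaperone, led with 298 and 277 FPKM in the female and male distal libraries, 303 and 299 FPKM in the middle ones, and 319 and 300.03 FPKM in the proximal ones. In all, 10 members averaged at least 100 FPKM and 28 lay between 5 and 100. The 6 highest (Calr, P4hb, Atf4, Pdia3, Ssr4 and Sec61b) gave 45.73% of the FPKM summed over the list. For each gene the highest library was set over the lowest of the 6. This ratio had a median of 1.345 over the 38 members, and it was under 1.5 for 29 of them (76.32%) and at least 2 for 0. Among all kept genes with a mean of at least 5 FPKM the median was 1.374, with 64.95% under 1.5 and 1287 of 8619 at 2 or more. The members' median was thus close to that of genes averaging at least 5 FPKM, while large ratios were absent among the members. Beyond this lower limit the sets were not matched by level.

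**Figure D2:**
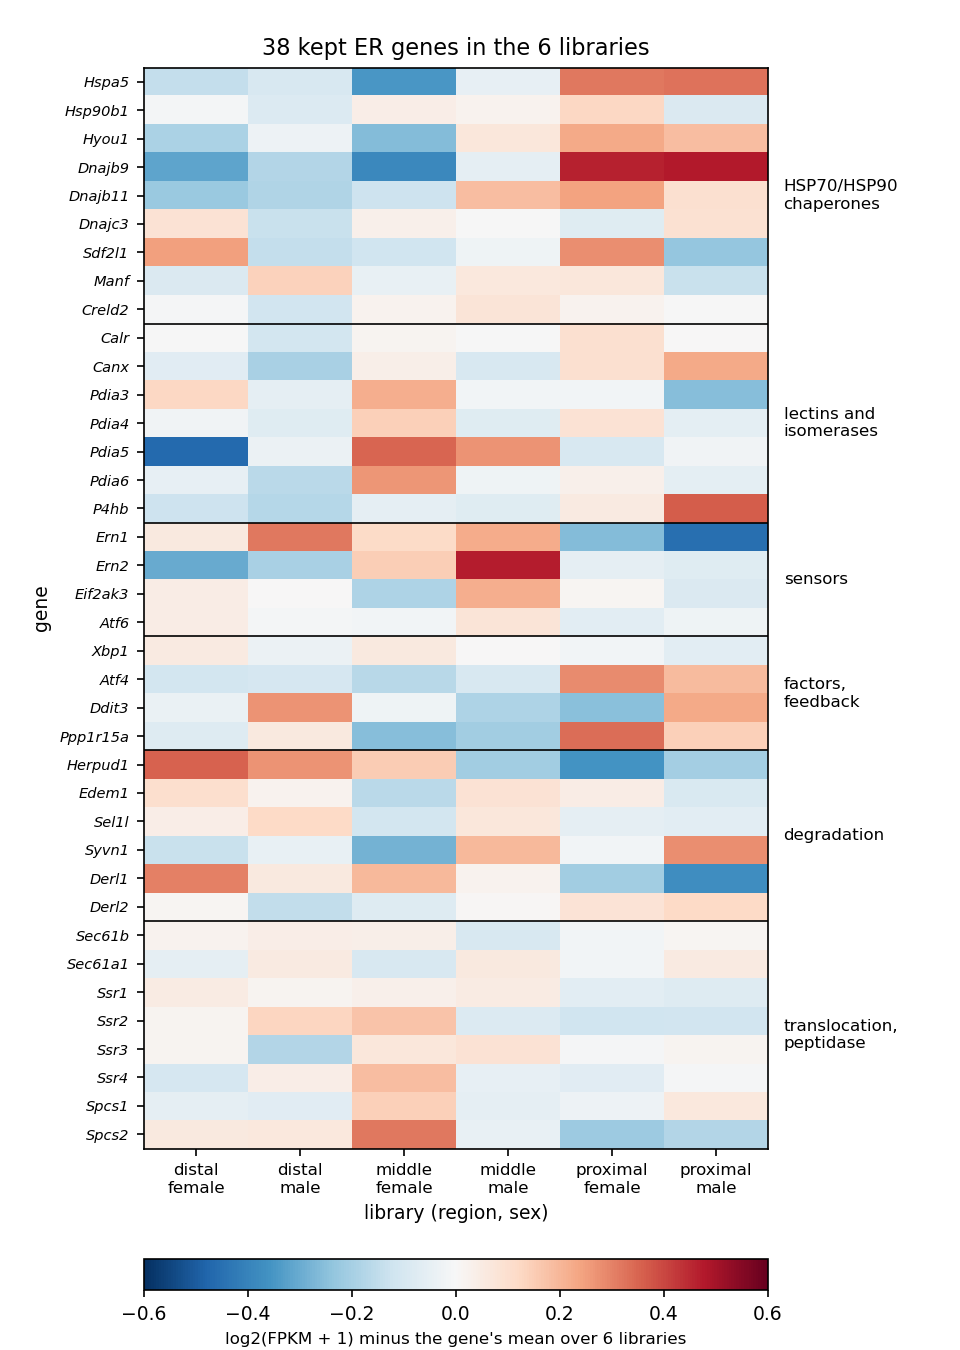
Level of each kept member in each of the 6 libraries, relative to that gene's mean over the libraries on a log2 scale, with members grouped by role and columns running from distal to proximal colon. Most rows are pale. Dnajb9, Hspa5 and Atf4 are higher in the proximal columns and Herpud1 in the distal ones, while Derl1 and Ern1 are lower in the proximal columns than in the distal and middle ones.

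Between distal and proximal colon, 1 member rose and 1 fell. Derl1, a channel-forming part of the degradation machinery, was higher in distal colon, and Dnajb9, a BiP cochaperone that also restrains IRE1, was lower there. These 2 of 38 members (5.26%) stand beside 14.1% of all 11815 kept genes called in this comparison by limma at an adjusted p under 0.05. By direction, 1 member stands beside 6.47% of kept genes called higher and 1 beside 7.64% called lower. At an unadjusted p under 0.05, 10 of 38 members and 3451 of 11815 genes passed. The fitted difference was positive for 17 members and negative for 21. The median difference over the members was -0.05 on the log2(FPKM + 1) scale, against 0.01 over all kept genes. The 95% interval of the difference stayed within a 2-fold change either way for 37 members (97.4%), all but Dnajb9, against 85.2% of kept genes with a mean of at least 5 FPKM, a level that all 38 reach. It stayed within 1.5-fold for 28 members (73.7%), against 59.4% of such genes.

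Among the 9 chaperones of the HSP70 and HSP90 cycle, 1 fell in distal colon and 8 did not pass the test. Dnajb9 (ERdj4, chr12:44205559-44210326, mm10) had 25.5 and 28.3 FPKM in the female and male distal libraries, 24.3 and 30.8 FPKM in the middle ones, and 44.6 and 45.0 FPKM in the proximal ones. Both distal and both middle libraries lay below both proximal ones. The fitted distal against proximal difference was -0.72 on the log2(FPKM + 1) scale (SE 0.11, limma adjusted p = 0.0165, interval -1.002 to -0.43). The call was lost when the female distal library (adjusted p = 0.0923) or the male distal library (adjusted p = 0.142) was left out, and the sign was kept.

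Hspa5, which encodes the central ER chaperone BiP (chr2:34771970-34777547), had 138 and 143 FPKM in the female and male distal libraries, 120.1 and 148 FPKM in the middle ones, and 191 and 192 FPKM in the proximal ones. The proximal libraries were the highest here too. The difference, -0.44 (SE 0.12), missed the threshold with a limma adjusted p of 0.0669 and an interval of -0.74 to -0.15. Its cochaperone Dnajb11 (ERdj3) had 48.2 and 49.7 FPKM in the female and male distal libraries, 51.7 and 64.3 FPKM in the middle ones, and 66.8 and 60.4 FPKM in the proximal ones, a distal against proximal difference of -0.37 (adjusted p = 0.138). Hyou1, a large HSP70-like protein that exchanges BiP's nucleotide, had 17.1 and 19.2 FPKM in the female and male distal libraries, 16.2 and 20.6 FPKM in the middle ones, and 23.1 and 22.5 FPKM in the proximal ones, a difference of -0.32 (adjusted p = 0.163).

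For these 3 genes, too, both distal libraries lay below both proximal ones. Without the female proximal library the differences of Dnajb11 and Hyou1 were -0.21 and -0.18. The 5 remaining chaperone genes had fitted differences between -0.07 and 0.06. They are Hsp90b1 (GRP94, the ER form of HSP90, 151 to 175 FPKM), Dnajc3 (p58IPK, a BiP cochaperone), Manf (a secreted BiP cofactor), Creld2 (an ER stress-induced isomerase-like protein) and Sdf2l1, a partner of Dnajb11 with 11.3 to 16.5 FPKM. Hspa5 has the ERSE printed above, and so have Hsp90b1, Dnajc3 and Creld2. Over the 8 kept members with an ERSE, the fitted distal against proximal difference was below 0 for all 8, with a median of -0.10, and 0 were called by limma (Hspa5 and Canx had an unadjusted p under 0.05). Of all tested members, 21 of 38 were fitted lower, and of all kept genes 5788 of 11815. Derl3, which also has an ERSE, was not tested. Its female and male distal libraries (0.444 and 0.224 FPKM) lay above the proximal ones (0.197 and 0.220 FPKM). Between middle and proximal colon the 8 tested genes were fitted higher for 4 and lower for 4, with a median of -0.02. The distal against proximal count was 7 of 8 when the male distal, male proximal or female proximal library was left out.

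Lectin chaperones and disulfide isomerases (7 genes) had 0 calls between distal and proximal colon, with 2 at an unadjusted p under 0.05. P4hb, the archetypal protein disulfide isomerase, had 253 and 244 FPKM in the female and male distal libraries, 266 and 262 FPKM in the middle ones, and 286 and 355 FPKM in the proximal ones. The difference was -0.36 (limma adjusted p = 0.154, interval -0.70 to -0.02), and the male proximal library stood above the rest. Canx, the membrane-bound lectin chaperone, had 71.6 and 65.5 FPKM in the female and male distal libraries, 77.1 and 70.2 FPKM in the middle ones, and 80.5 and 88.1 FPKM in the proximal ones, a difference of -0.29 (adjusted p = 0.155). Without the male proximal library the differences of P4hb and Canx were -0.19 and -0.16. Its soluble relative Calr had -0.11, and Pdia3 (ERp57), which works with both lectins, had 0.17. The isomerases Pdia4, Pdia5 and Pdia6 had -0.06, -0.19 and -0.09.

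None of the 4 stress sensors was called, and 1 had an unadjusted p under 0.05. Ern1 (IRE1alpha, chr11:106394650-106487852), the sensor that splices Xbp1 mRNA, had 13.4 and 16.2 FPKM in the female and male distal libraries, 13.9 and 15.1 FPKM in the middle ones, and 10.5 and 9.06 FPKM in the proximal ones. Distal and middle libraries all lay above the proximal ones. The difference was 0.55 (SE 0.14, limma adjusted p = 0.0613), and it passed the threshold when the female proximal library was left out (0.73, adjusted p = 0.0271). It was 0.36 without the male proximal library (adjusted p = 0.2) and 0.40 without the male distal one (adjusted p = 0.414). Ern2 (IRE1beta), its mucosal relative, had a difference of -0.19 with an interval of -0.48 to 0.11. Eif2ak3 (PERK, which slows translation) and Atf6 (a membrane-bound factor freed by cleavage) had 8.09 to 11.01 and 9.70 to 10.8 FPKM over the 6 libraries, with differences of 0.06 each.

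The transcription factors and feedback genes (4 kept) also had 0 calls, with 1 at an unadjusted p under 0.05. Atf4, the factor translated when PERK is active, had 222 and 223 FPKM in the female and male distal libraries, 213 and 223 FPKM in the middle ones, and 291 and 273 FPKM in the proximal ones. Both proximal libraries were above the other 4. The difference was -0.34 (limma adjusted p = 0.106). Ppp1r15a (GADD34), which restores translation, had 49.5 and 54.4 FPKM in the female and male distal libraries, 43.5 and 45.0 FPKM in the middle ones, and 66.2 and 57.8 FPKM in the proximal ones, a distal against proximal difference of -0.25 (adjusted p = 0.229). That difference was -0.11 without the female proximal, -0.15 without the female distal and -0.39 without the male proximal library. Ddit3 (CHOP), a factor linked to cell death under lasting stress, had 0.12. Xbp1, the factor that drives secretory expansion, ranged over the 6 libraries only between 84.2 and 91.9 FPKM. Gene-level FPKM does not separate its spliced and unspliced mRNA, so IRE1 activity cannot be read from it.

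Of the 6 kept degradation genes, Derl1 rose in distal colon and 5 did not pass the test. Derl1 (chr15:57869502-57892448) had 38.7 and 32.5 FPKM in the female and male distal libraries, 35.9 and 31.7 FPKM in the middle ones, and 26.8 and 23.9 FPKM in the proximal ones. Distal and middle libraries all lay above the proximal ones. The difference was 0.47 (SE 0.09, limma adjusted p = 0.0297, interval 0.24 to 0.71). The call was narrow: the adjusted p was 0.0788 without the sex term, 0.0559 without the variance trend, and between 0.0602 and 0.206 when any 1 of the 6 libraries was left out.

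Herpud1 (chr8:94386438-94395377), a stress-induced scaffold of the ubiquitin ligase complex in the ER membrane, had 207 and 195 FPKM in the female and male distal libraries, 179.7 and 139.7 FPKM in the middle ones, and 126 and 140.1 FPKM in the proximal ones. Both distal libraries lay above both middle and both proximal ones. Its distal against proximal difference, 0.59 (SE 0.15, limma adjusted p = 0.0559), was the largest positive one of the list. It passed the threshold without the male proximal library (0.78, adjusted p = 0.0261), without the female middle one (adjusted p = 0.0439), without the male middle one (adjusted p = 0.0433), and after quantile normalization (0.57, adjusted p = 0.046). It missed it by more without the female proximal library (0.40, adjusted p = 0.178), without the female distal one (adjusted p = 0.227) and without the male distal one (adjusted p = 0.312). Syvn1 (HRD1, the ligase itself) had a difference of -0.22 and its adaptor Sel1l 0.14. Edem1, which marks misfolded glycoproteins by trimming mannose, had 0.08, and Derl2, a relative of Derl1, had -0.17. The summed FPKM of the degradation genes averaged 312 in distal and 235 in proximal libraries, a ratio of 1.33. Herpud1 alone averaged 201 and 133 FPKM, so it held most of that rise. The same ratio was 0.829 for the HSP70 and HSP90 cycle and 0.907 for lectins and isomerases. It was 0.997 for sensors, 0.860 for factors and feedback, and 1.02 for translocation and signal peptidase.

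Translocation and signal peptidase genes (8) had 0 calls between distal and proximal colon and 0 at an unadjusted p under 0.05. Differences ran from -0.08 for Ssr3 to 0.26 for Spcs2. Spcs2, a signal peptidase subunit, had 25.8 and 25.9 FPKM in the female and male distal libraries, 31.0 and 24.0 FPKM in the middle ones, and 21.1 and 21.8 FPKM in the proximal ones (adjusted p = 0.272). Its distal against proximal difference was 0.15 without the female proximal library. The channel genes Sec61a1 and Sec61b had -0.02 and 0.04, and their lowest and highest libraries were 77.3 and 86.2 FPKM for Sec61a1 and 158 and 174 FPKM for Sec61b. The translocon-associated subunits Ssr1, Ssr2 and Ssr4 and the peptidase subunit Spcs1 lay between -0.08 and 0.19.

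**Figure D3:**
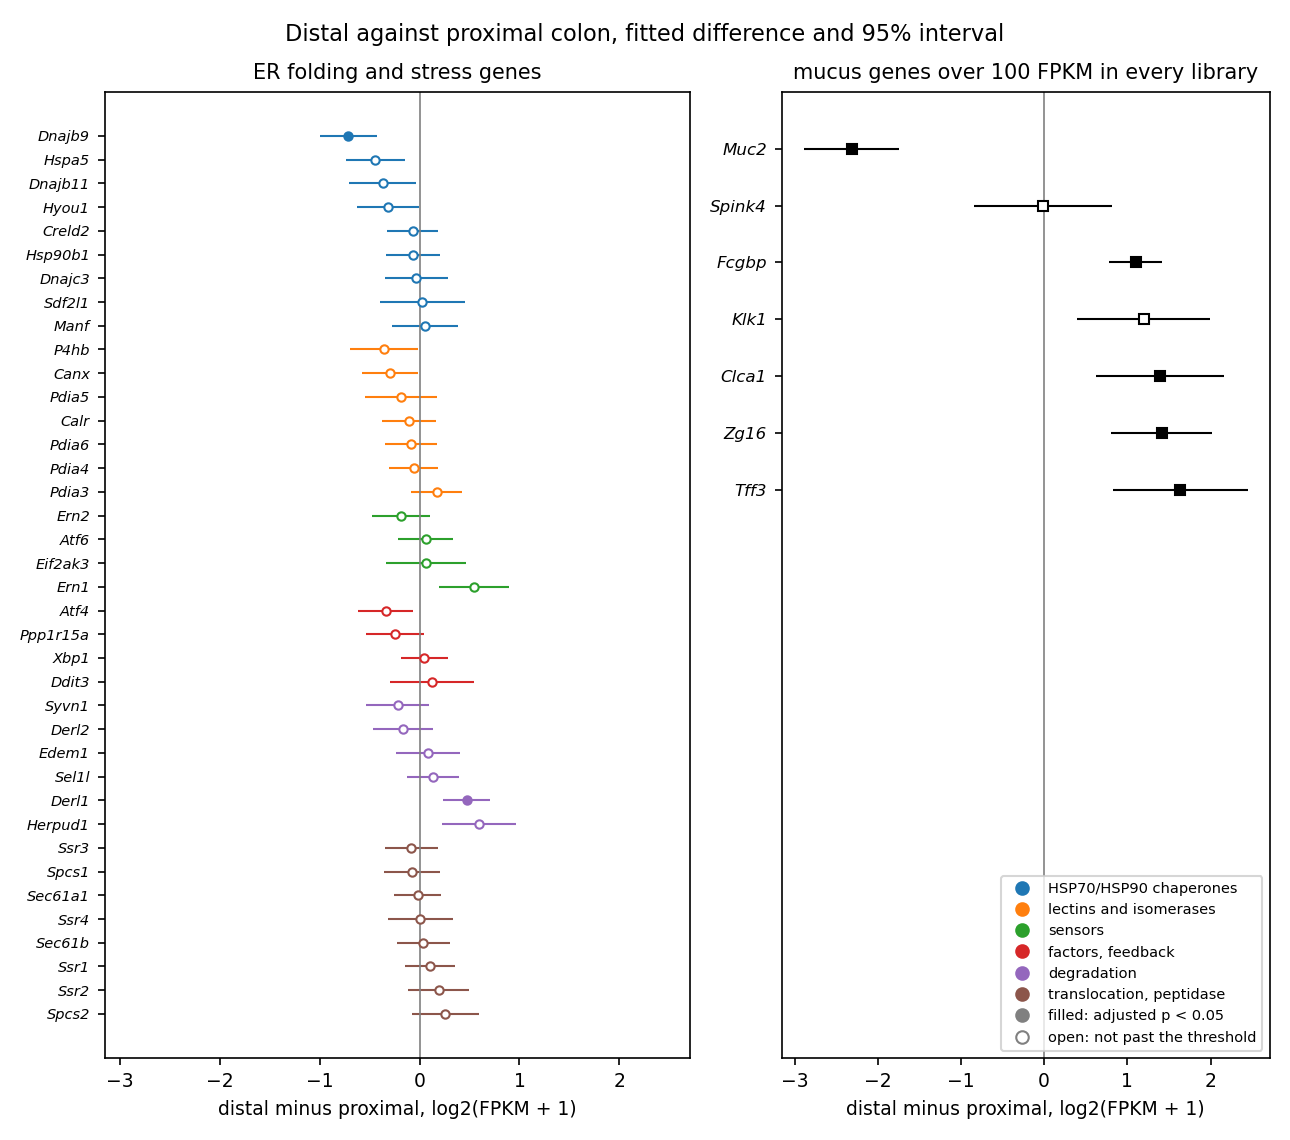
Fitted distal minus proximal difference on the log2(FPKM + 1) scale with its 95% interval, for the 38 kept ER genes by role (left) and for the mucus genes above 100 FPKM in every library (right). Filled markers passed a limma adjusted p of 0.05: Dnajb9 at -0.72 and Derl1 at 0.47 on the left, Muc2 at -2.31 among others on the right.

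Counted without a test, both distal libraries lay above both proximal ones for 9 of 38 members and below them for 14, where 30.8% and 29.5% of all kept genes did so. The distal against proximal difference had the same direction in the females and the males for 32 of 38 members (84.2%), where 71.3% of all kept genes did so. For middle against proximal colon this held for 22 members (57.9%) and 59.7% of kept genes, and for distal against middle colon for 17 members (44.7%) and 60.9% of kept genes.

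Between middle and proximal colon, 0 of 38 members passed the limma threshold, where 2.45% of all kept genes did (1.19% higher and 1.25% lower). At an unadjusted p under 0.05 there were 8 members and 2164 of 11815 genes. Dnajb9 was nearest with -0.69 (adjusted p = 0.0521), and it passed when genes under 5 FPKM were left out of the test (adjusted p = 0.0468) or without the male proximal library (-0.80, adjusted p = 0.0425). It was -0.56 without the female middle library, with an adjusted p of 0.282, the highest of its alternatives. Hspa5 followed with -0.52 (adjusted p = 0.0912), Derl1 with 0.40 (adjusted p = 0.0974) and Ppp1r15a with -0.47 (adjusted p = 0.106). Ern1 had 0.53 (adjusted p = 0.128), 0.71 without the female proximal library (adjusted p = 0.0478) and 0.34 without the male proximal one (adjusted p = 0.362). The 4 sensors had positive fitted differences here, as had 5914 of 11815 kept genes, but 3 of 4 did without the male middle or the male proximal library. Eif2ak3 differed by -0.20 in females and 0.305 in males. The summed FPKM of the sensors was 1.27-fold higher in middle than in proximal libraries, and Ern2 held the largest part of that rise. The interval stayed within a 2-fold change for all 38 members and for 89.9% of kept genes with a mean of at least 5 FPKM. Counted without a test, both middle libraries lay above both proximal ones for 10 members and below them for 8, where 21.6% and 22.2% of all kept genes did so.

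Between distal and middle colon, 0 of 38 members passed by limma, against 0.499% of kept genes (0.11% higher and 0.389% lower). At an unadjusted p under 0.05 there were 2 members, Ern2 and Pdia5, and 1499 of 11815 genes. Ern2 (chr7:122169893-122186207) had 42.2 and 45.6 FPKM in the female and male distal libraries, 58.1 and 73.0 FPKM in the middle ones, and 50.4 and 49.7 FPKM in the proximal ones. The middle libraries were the highest and the distal ones the lowest. The distal against middle difference was -0.56 (adjusted p = 0.150), with adjusted p = 0.0446 without the female proximal library and 0.0456 without the male proximal one. In the other alternatives the difference ran from -0.70 to -0.42, the smaller without the male middle library, with adjusted p up to 0.728. Pdia5, whose product is a disulfide isomerase, had 26.9 and 36.6 FPKM in the female and male distal libraries, 48.1 and 45.5 FPKM in the middle ones, and 35.0 and 36.9 FPKM in the proximal ones, a distal against middle difference of -0.56 (adjusted p = 0.209), and -0.34 without the female distal library. All 7 lectin and isomerase genes had a negative fitted difference in this comparison, with a median of -0.09. Without the male distal library 6 of 7 did, and 5720 of 11815 kept genes did in the main model. Both distal libraries lay above both middle ones for 2 members and below them for 10, where 20.5% and 19.1% of all kept genes did so.

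**Figure D4:**
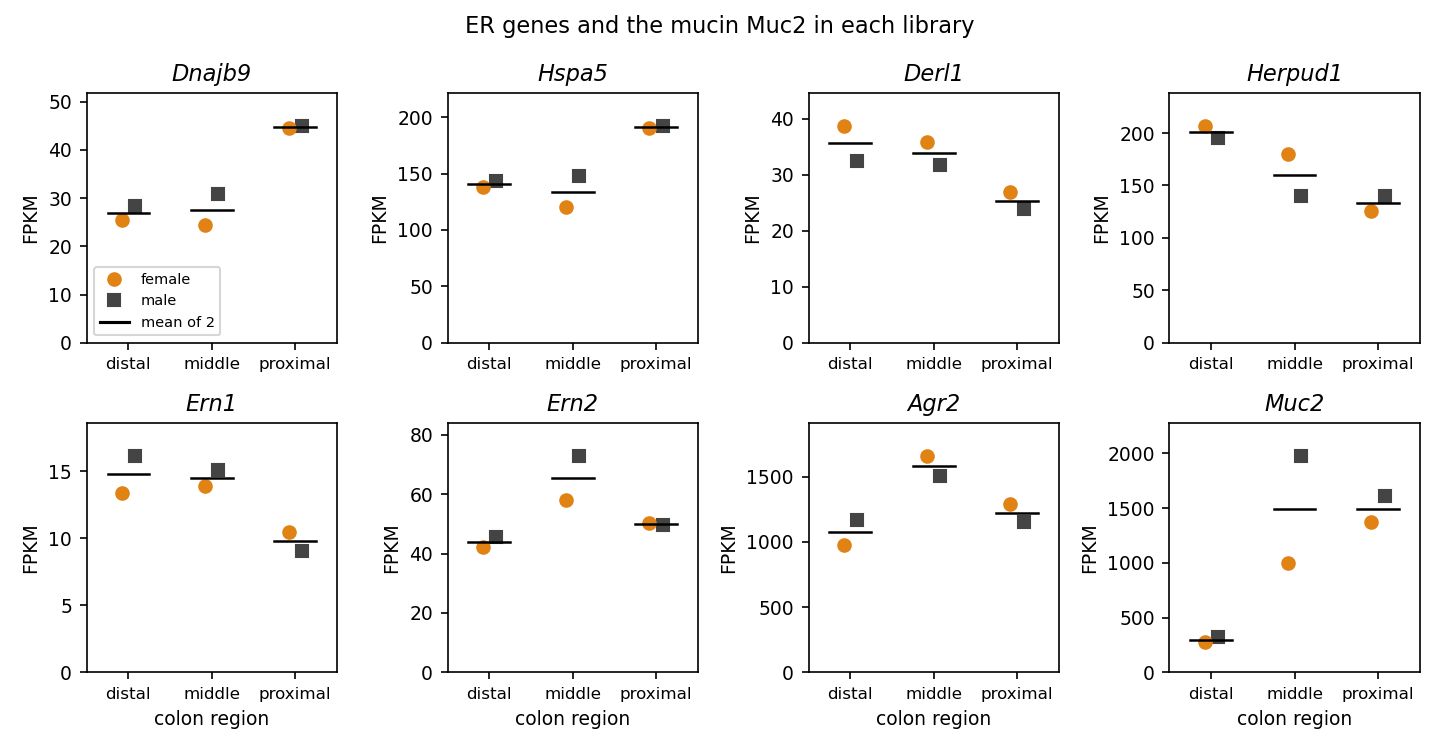
FPKM of single genes in each library, by region from distal to proximal, with female and male libraries as separate markers and the vertical axes starting at 0. Dnajb9 and Hspa5 are highest in the proximal libraries, Derl1, Ern1 and Herpud1 tend to be lowest there, and Ern2 and Agr2 are highest in the middle ones; Muc2 is lowest in the distal ones. Lines mark the mean of the 2 libraries.

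Between female and male libraries, 0 of 38 members passed by limma, against 0.0423% of kept genes (0.00846% higher and 0.0339% lower). At an unadjusted p under 0.05 there were 3 members and 1256 of 11815 genes. These 3 were Syvn1 (-0.29), Pdia3 (0.22) and Derl1 (0.19), with adjusted p between 0.451 and 0.469. The interval stayed within a 1.5-fold change for 37 of the 38 members (97.4%) and for 84% of kept genes with a mean of at least 5 FPKM.

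Other genes of the same pathway, 98 kept in 4 lists, gave 1 call higher and 5 lower between distal and proximal colon (6.12%, below the 14.1% of all kept genes). Of 25 other folding and oxidation genes, Txndc5, a disulfide isomerase, was lower: 91.6 and 101 FPKM in the female and male distal libraries against 144 and 145 FPKM in the proximal ones (-0.59, limma adjusted p = 0.0282). Of 25 genes of translocation and N-glycan transfer, Ddost, a subunit of the oligosaccharyltransferase, was higher, with 136 and 144 FPKM in the female and male distal libraries against 89.8 and 87.2 FPKM in the proximal ones (0.65, adjusted p = 0.0288). Of 23 other degradation genes, Edem3, a relative of Edem1, was lower (-0.87, adjusted p = 0.0228). Of 25 other regulators and stress targets, 3 were lower: Nupr1, a stress-induced nuclear protein (-1.40, adjusted p = 0.00638), the lipoprotein receptor gene Vldlr (-0.91, adjusted p = 0.0339) and the ATF4 target Sesn2 (-0.72, adjusted p = 0.0173). All 6 kept their sign but missed the threshold when the male distal library was left out, with adjusted p between 0.0658 and 0.262. Ddost, Txndc5, Sesn2 and Vldlr also missed it without the female distal library (0.0812, 0.163, 0.0856 and 0.0567). Ddost, Txndc5 and Vldlr missed it without the female proximal library (0.0672, 0.0851 and 0.0744), and Sesn2 and Vldlr without the male proximal one (0.0606 and 0.0889). Vldlr also missed it without the sex term (0.136).

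Atf3, a stress-induced transcription factor that is also an ATF4 target, was the single call of these 98 genes in each of the other region comparisons. It had 722 and 593 FPKM in the female and male distal libraries, 220.05 and 201 FPKM in the middle ones, and 614 and 435 FPKM in the proximal ones. The middle libraries were thus the lowest, by -1.29 against proximal (limma adjusted p = 0.0257), and distal exceeded middle by 1.63 (adjusted p = 0.0255). Both calls were lost without the sex term (adjusted p = 0.0818 and 0.0718), without the female middle library (0.173 and 0.0678) and without the male middle one (0.0592 and 0.0843). The distal against middle call was also lost without the female or male distal library (0.122 and 0.224). Between female and male libraries 0 of the 98 were called, with 5 at an unadjusted p under 0.05.

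The summed level of the ER list differed less between regions than that of the mucus genes. The 40 genes summed to 2948 and 2907 FPKM in the female and male distal libraries, 3043 and 2941 FPKM in the middle ones, and 3093 and 3091 FPKM in the proximal ones, a mean in distal colon 0.947-fold and in middle colon 0.968-fold that of proximal colon. The 17 secreted mucus genes in the files summed to 11305 and 11448 FPKM in the female and male distal libraries, 18553 and 12066 FPKM in the middle ones, and 6675 and 6330 FPKM in the proximal ones, 1.75-fold and 2.35-fold the proximal mean. Mucus FPKM per ER FPKM was therefore 3.84 and 3.94 in the distal, 6.10 and 4.10 in the middle, and 2.16 and 2.05 in the proximal female and male libraries. The female middle library was the highest, and the 2 proximal ones were the lowest. Part of the distal rise of the mucus sum came from Klk1 and Sval1. Klk1 had 2492 and 3642 FPKM in the female and male distal libraries, and 1308 and 1319 FPKM in the proximal ones. Sval1 had 655 and 635 FPKM in the distal ones, and 101 and 1.80 FPKM in the proximal ones. The 9 goblet markers include Muc2 and Agr2 but neither Klk1 nor Sval1. Their summed FPKM in distal colon was 1.384-fold and in middle colon 2.198-fold the proximal mean. Of all FPKM in a library, the ER genes took 0.486% and 0.489% in the female and male distal libraries, 0.497% and 0.538% in the middle ones, and 0.541% and 0.537% in the proximal ones.

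**Figure D5:**
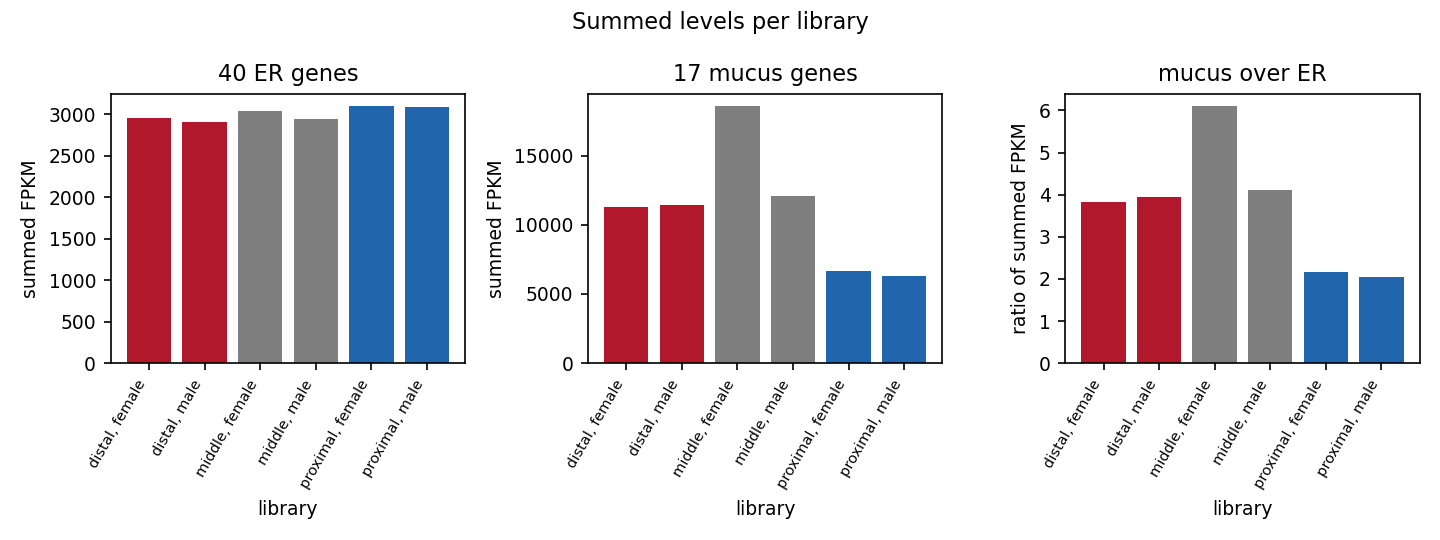
Summed FPKM of the 40 ER genes, of the 17 secreted mucus genes, and the ratio of mucus to ER sums, in each of the 6 libraries from distal to proximal colon, with axes starting at 0. The ER sums stay between 2907 and 3093, while the mucus sums run between 6330 and 18553.

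The mucus sum hid opposite differences. Of 11 kept mucus genes, 5 were higher and 2 lower in distal than in proximal colon by limma, where 6.47% and 7.64% of all kept genes were. The mucus list, Sval1 included, was chosen with earlier results of these data known, so these counts only describe it. Zg16, a lectin of the mucus layer, was higher by 1.41 (adjusted p = 0.0194) and Fcgbp, a mucin-associated protein, by 1.10 (adjusted p = 0.00734), with Clca1, Tff3 and Sval1 the other three. Muc2, the gel-forming mucin itself, was lower: 275 and 323 FPKM in the female and male distal libraries, 997 and 1980.4 FPKM in the middle ones, and 1373 and 1607 FPKM in the proximal ones (-2.31 against proximal, adjusted p = 0.00492). Retnlb, which encodes a goblet cell antimicrobial protein, was also lower (difference -5.91, adjusted p = 0.00318). Retnlb was called under every alternative tried, and Muc2 under all but 1, the male distal library left out (adjusted p = 0.0525). The 5 genes called higher all missed the threshold without the sex term (adjusted p 0.0568 for Zg16 to 0.31 for Clca1) and without the male distal library (0.0859 for Fcgbp to 0.248 for Zg16). Against proximal colon, middle colon had 3 mucus genes called higher (Clca1, Fcgbp and Zg16) and 0 lower, where 1.19% and 1.25% of all kept genes were; all 3 were lost without the sex term (adjusted p 0.0892 to 0.207) and without the female middle library (0.0765 to 0.202). Between distal and middle colon, 0 mucus genes were called higher and 1, Muc2, lower, where 0.11% and 0.389% of all kept genes were. The Muc2 difference ran from -2.61 to -1.85 over the alternatives, and its call was lost under some of them. All 10 mucus genes with a mean of at least 5 FPKM had a highest library at least 2 times the lowest. Their median ratio was 6.86. A ratio of at least 2 was found for 0 of the 38 ER members and for 1287 of 8619 kept genes with such a mean.

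Against Muc2 alone, the goblet-linked ER genes took different ratios along the colon. Ern2 stood at 15.4 and 14.1 FPKM per 100 FPKM of Muc2 in the female and male distal libraries, 5.83 and 3.69 in the middle ones, and 3.68 and 3.09 in the proximal ones. Agr2, an isomerase needed for MUC2 production and a member of the other folding list, had 979 and 1168 FPKM in the female and male distal libraries, 1662 and 1504 FPKM in the middle ones, and 1288 and 1150 FPKM in the proximal ones. It was called in none of the 4 limma comparisons (1 of them, distal against middle at -0.56, had an unadjusted p under 0.05). Per 100 FPKM of Muc2, Agr2 stood at 356 and 362 FPKM in the female and male distal libraries, 167 and 75.9 FPKM in the middle ones, and 93.85 and 71.55 FPKM in the proximal ones. Both ratios were highest in distal libraries, where Muc2 was lowest. The same held for Xbp1, whose own level hardly varied. It stood at 33.3 and 26.6 FPKM per 100 FPKM of Muc2 in the female and male distal libraries. The middle ones had 9.2 and 4.4, and the proximal ones 6.3 and 5.2. The distal rise of the ratio was thus not particular to Ern2 and Agr2. Spdef, a factor of goblet cell maturation, had lower distal than proximal levels (difference -1.97, limma adjusted p = 0.00607), while Foxa2, a factor of secretory cells, was higher (1.81, adjusted p = 0.00555). Both passed the threshold under every alternative tried, with adjusted p of at most 0.0245.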

How the data were processed

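The members and lists were chosen with earlier results of these data known. The authors deposited 1 FPKM value per gene and library. The submitters' processing notes name mm10 as genome and Cuffdiff 2.2.1, TopHat2 2.1.1, SAMtools 0.1.18 and Bowtie2 2.2.8 as tools. For settings, annotation and strand use the entry is: not given in the sources used here. Ddit3, Syvn1, Derl2, Spcs1 and Hsp90b1 overlap a gene on the other strand with at least 1 FPKM, and Manf a gene on its own strand, so their reads could be shared. No count model fits FPKM, and none was run. Library depth is a rough estimate, from the steps between the smallest FPKM values.

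Kept genes (11815 of 24346) had at least 1 FPKM in at least 2 libraries. They were tested as log2(FPKM + 1), a scale that understates changes of low genes. The main model, region plus sex over all 6 libraries, was fitted with limma 3.58.1 (R 4.3.3) and a variance trend, with 2 residual and 3.49 prior degrees of freedom. Benjamini-Hochberg adjustment ran over the kept genes, at 0.05. Sex was used as the pairing term: the labels give sex, but not whether regions of 1 sex share mice. Same-sex deviations correlated at 0.35 between distal and middle, 0.13 between distal and proximal, and 0.18 between middle and proximal colon. On simulated data for distal against proximal colon (11815 genes, 200 changed, 20 draws), 82.8% of genes changed by 1 (log2) were recovered, and 7.87% of calls were false. Changes smaller than 1 were not simulated, and every fitted member difference was smaller, so recovery at the members' sizes is not known.

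Every member is named. Called members and the 12 with the largest distal against proximal difference are given in every library, and Ern2, Pdia5 and Calr were added after their values were seen. From the other pathway lists, called genes are named, with Agr2, but not every comparison that called them is given. Markers are given mostly as sums, and not all of their calls are named. Alternatives changed the pseudocount (0.1), the filter (none, or 5 FPKM), the scaling (quantile or median-ratio), the variance trend, the sex term, or left out 1 library at a time. Region by sex leaves 0 residual degrees of freedom, so that test was not run. Coordinates are from GENCODE M21 (mm10) and promoter windows from RefSeq. Python 3.11.15 with matplotlib 3.10.9 made the figures.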

Additional observations from a re-analysis of the deposited data

Results flagged for a closer look

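In all, 3 members moved in opposite directions in the 2 sexes, by at least 0.2 on the log2(FPKM + 1) scale in each; there is 1 library per sex and region, so the difference between the sexes was not tested. Sdf2l1, the chaperone partner of Dnajb11, differed between middle and proximal colon by -0.40 in females and 0.21 in males. Ddit3 (CHOP) differed between middle and proximal colon by 0.22 in females and -0.41 in males. Eif2ak3 (PERK) differed between distal and middle colon by 0.23 in females and -0.21 in males.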

How the results depend on the processing

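With 2 libraries per region, counts depended on single libraries. With each library left out in turn (the lone library of its region then taken to vary like the others), all genes called in distal against proximal colon ran from 334 (without the male distal library) to 1518, with 779 without the female distal one and 1668 in the main model. For middle against proximal they ran from 0 (without the female middle library) to 777 (without the female proximal one), with 61 without the male middle one and 289 in the main model. For distal against middle they were 0, 6, 1, 36, 412 and 426 without the male distal, female distal, male middle, female middle, male proximal and female proximal libraries, and 59 in the main model; for female against male they ran from 3 to 25 (main 5). Member counts ran from 0 to 1 for higher and for lower calls in distal against proximal, for higher and for lower calls in middle against proximal, and for lower calls in distal against middle. Without the replicate block (sex left out), all genes called were 1240, 24 and 17 in distal against proximal, middle against proximal and distal against middle, and 0 members were called higher in distal against proximal, Derl1 having an adjusted p of 0.0788; no other member's call changed. Without a filter, 4 genes were called for middle against proximal and 2 for distal against middle; without the variance trend the counts were 187 and 29, and 0 members were called higher in distal against proximal. Quantile normalization called 2 members higher there (Derl1 and Herpud1), and a minimum of 5 FPKM called 1 member lower in middle against proximal (Dnajb9). Median-ratio scaling gave member sums of 3077 and 3073 FPKM in the female and male proximal libraries. Over the 25 member differences with an unadjusted p under 0.05 or among the 12 largest, 305 of 325 alternative values kept their side of the threshold, 10 came to pass it, 10 ceased to pass it and 0 changed sign. For 22 calls of the other lists, 82 of 286 alternative values missed the threshold and 0 changed sign. The causes were not tested.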
